A study of Zea mays with 6 samples.

Results

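The change in leaf expression between the vegetative T1 stage and the silking T2 stage was set side by side in 2 maize varieties, and the probe sets whose change differed between them are described here. For each probe set the log2 signal at T1 was subtracted from that at T2 in Tietar and in DKC6575, and the DKC6575 change was then subtracted from the Tietar change. This difference of differences is positive where Tietar gained more, or lost less, signal than DKC6575. It is the same number as the variety difference at T2 minus the variety difference at T1. Of 17734 probe sets deposited, 113 controls were left out, and 9802 of the remaining 17621 had a signal of at least 64 on all 4 arrays of the comparison. Of these, 155 reached 2-fold (1 or more on the log2 scale, in either direction) and are called here.

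Leaves came from field plants, and all 4 arrays of the comparison are from plants irrigated to 100% of field capacity. Tietar is a commercial hybrid without a transgene, and DKC6575 is its near-isogenic counterpart with the MON810 event, a cryIAb gene driven by the CaMV 35S promoter. T1 is the eight-leaf vegetative stage (V8) and T2 is silking (R1). A further array per variety, from T2 plants of a plot that received 0% irrigation, did not enter the difference and is given beside it. Each of the 6 groups is 1 Affymetrix maize array, so plant, plot, extraction and array cannot be told apart from variety and stage, and no p-value was computed. The methods give 3 biological replicates per variety and stage in the field, without saying how these entered the arrays. In whole leaves, fewer cells of a type and less RNA per cell cannot be told apart.

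Between these stages a maize leaf passes from the expansion of the canopy to flowering, when the tassel sheds pollen over the leaves and carbon starts to move to the ear. Photosynthesis in this leaf is shared between mesophyll cells, which fix bicarbonate with phosphoenolpyruvate carboxylase, and bundle sheath cells, which hold Rubisco. Genes for ribosomes, cell wall synthesis, hormone signals and defence are known to follow leaf age. The 11 mesophyll probe sets, all of C4 enzymes, had a summed signal of 96918 at T2 and 99499 at T1 in Tietar, against 74548 and 96438 in DKC6575. Most of the sum came from pep1 and from probe sets of 1 gene, C4ppdkZm1, and 3 of the 11 stayed under 64 on all 6 arrays. These sums are of signals as deposited, and the median difference of the C4 cycle enzymes was smaller after quantile normalization, as given below. Pep1 had 24718 and 23725 in Tietar at T2 and T1, against 18104 and 24471 in DKC6575. Kept probe sets with a negative difference were Zm.11861.1.A1_at for carbonic anhydrase (-0.07) and Zm.4471.4.A1_at for C4ppdkZm1 (-0.22). The bundle sheath probe set, rbcS, moved in a similar way, with 13329 and 14918 in Tietar, against 11177 and 15624 in DKC6575. Of 6 probe sets for markers of dividing tissue, KN-1 and proliferating cell nuclear antigen2 stayed under 64 on all 6 arrays, and the other 4, for histones H4 and H3.2, were kept. The 6 summed to 868 at T2 and 828 at T1 in Tietar, against 767 and 690.0 in DKC6575.

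For most probe sets the 2 changes lay close together. Over the 9802 probe sets the difference of differences had a median of -0.02, and 8581 (87.5%) lay within 0.5 of 0. Its SD was 0.351, not far below those of the changes themselves, at 0.456 in Tietar and 0.416 in DKC6575. The Tietar and DKC6575 changes had a Pearson's r of 0.679 and a Spearman's rho of 0.632 across probe sets, which are not independent replicates. At least 2-fold changes were seen at 352 probe sets in Tietar and at 235 in DKC6575. All 119 probe sets that changed at least 2-fold in both varieties did so in the same direction, and 6 of them were called.

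**Figure D1:**
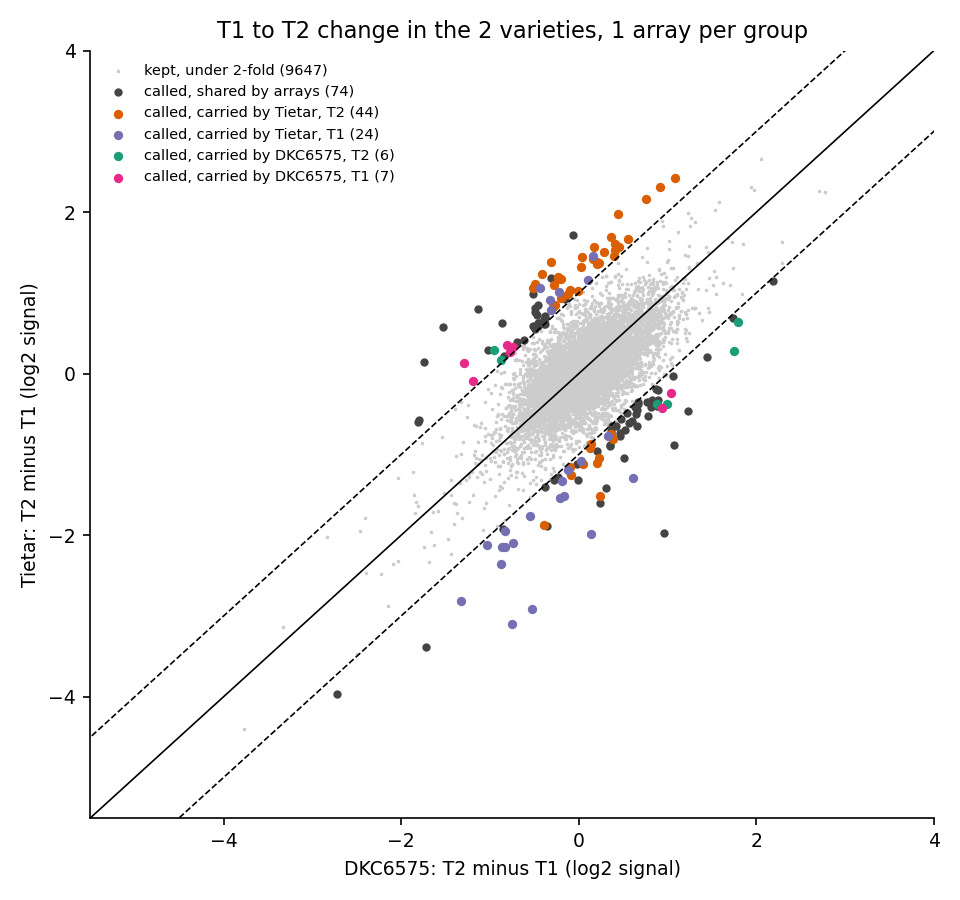
Change from T1 to T2 (log2 signal) in Tietar on the vertical axis and in DKC6575 on the horizontal axis, 1 point per probe set, with the diagonal of equal change as a solid line and a 2-fold difference between the varieties as dashed lines. The 155 called probe sets lie outside the dashed lines, and those carried by the Tietar T2 array (44, orange) lie mostly above the diagonal.

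The 2 directions were about equally frequent. Of the 9802 probe sets, 74 were called positive (0.755%) and 81 negative (0.826%). In 101 of the 155 the 2 varieties changed in opposite directions and in 54 in the same direction by different amounts. Calls are selected on the difference of the 2 changes, which favours opposite directions, and the share over all probe sets kept was not counted. In 67 neither variety alone changed 2-fold. Of the 74 positive probe sets, 34 were at least 2-fold higher at T2 in Tietar and 8 at least 2-fold lower at T2 in DKC6575. Of the 81 negative ones, 37 were at least 2-fold lower at T2 in Tietar and 9 at least 2-fold higher at T2 in DKC6575.

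Called probe sets were dim. Their median signal, as the mean of the 4 arrays, was 173, against 465 for all probe sets kept. The share called was 4.19% among those whose mean signal lay between 64 and 2 times 64, went down at each further doubling to 3.39%, 1.08% and 0.787%, and was 0.224% above that. The SD of the difference was 0.469 in the dimmest of these 5 classes and 0.258 in the brightest. The 18 spiked controls had differences of differences between -0.55 and 0.56, but they are brighter than most calls and hold nothing of the spread between plants or plots, so they give no error for the calls. On the positive side the last probe set inside 2-fold stood at 1.00 (Zm.3520.1.A1_at) and the first outside at 0.98 (ZmAffx.1177.1.S1_at). On the negative side PIF-like orf1 stood at -1.01 and the senescence-associated protein DH at -0.997, just short of the threshold.

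To find which array carries a difference, both ways of writing it were used. A stage carries it where its variety difference is at least 2 times that of the other stage in size, a variety where its change is at least 2 times that of the other variety, and an array where both hold. Single arrays carried 81 of the 155 called probe sets (52.3%), against 33.3% of all probe sets kept. The Tietar T2 array carried 44 of 155 (28.4%, exact 95% binomial interval 21.4 to 36.2, for counting error only), against 11.2% of all kept. That interval takes probe sets as independent, although all were read on the same arrays, so it is no test against the share of all kept. Calls and carriers also come from the same signals, so the shares by array are a description. The Tietar T1 array carried 24 (15.5%, against 6.34% of all kept). The DKC6575 T1 array carried 7 (4.52%, against 7.17%) and the DKC6575 T2 array 6 (3.87%, against 8.66%). The remaining 74 were shared between arrays. The classes were uneven in sign: the Tietar T2 array carried 33 positive and 11 negative calls, and the Tietar T1 array 6 positive and 18 negative.

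**Figure D2:**
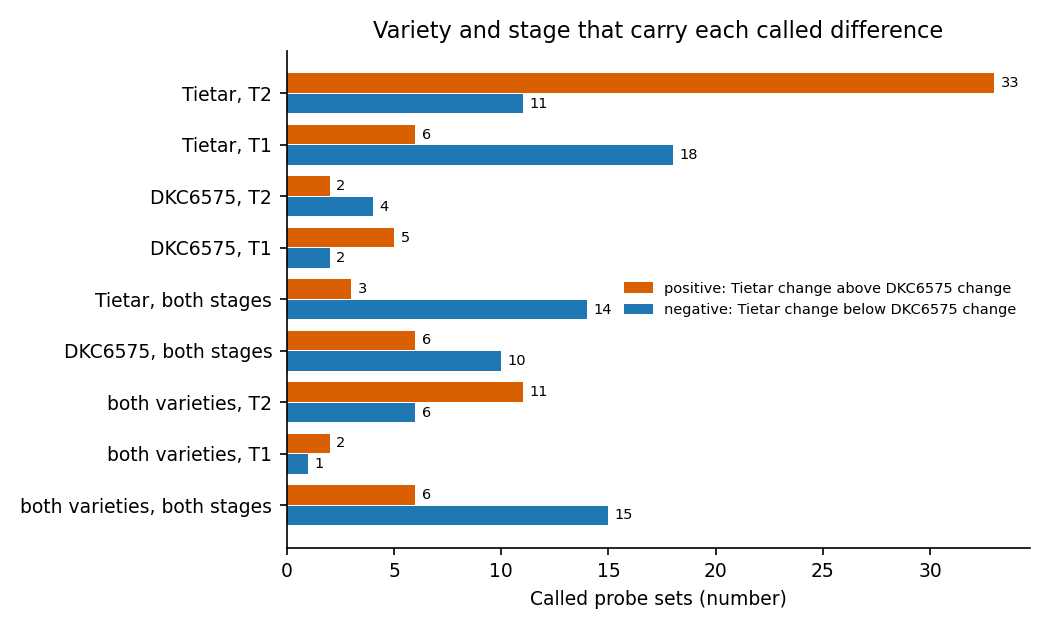
Number of called probe sets (horizontal axis) for each variety and stage that carries the difference, with positive calls in orange and negative calls in blue. The longest bar is the 33 positive calls carried by the Tietar T2 array, followed by the 18 negative calls carried by the Tietar T1 array.

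The largest group, 33 probe sets, was high on the Tietar T2 array alone among the 4. Its median signal was 387 at T2 and 141 at T1 in Tietar, against 156 at T2 and 152 at T1 in DKC6575. The rule for the group uses these 4 arrays, so their pattern is a description. On the drought arrays, which the rule did not use, the medians were 183 in Tietar and 145 in DKC6575. On both, 29 of the 33 lay within 2-fold of the mean of the other 3 irrigated arrays. The share over all probe sets kept was not counted, so this is no trait of the group. By the group medians, the raised level was that of 1 of the 3 Tietar arrays.

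Of the 11 named members of the group, 4 are in the lists of ribosomal proteins and translation factors (36.4%), which hold 129 of the 1224 named probe sets kept (10.5%). The members were picked by these same signals, and list patterns were adjusted after members were seen, so the shares were not tested. As wholes, the lists had median differences of -0.05 (113 cytosolic ribosomal probe sets), 0.14 (12 for translation factors) and 0.82 (4 plastid ribosomal). The 30S ribosomal protein S7 (ZmAffx.26.1.S1_at), of the small subunit of bacterial-type ribosomes such as those of plastids, had a signal of 1309.8 at T2 and 333 at T1 in Tietar, against 291 at T2 and 213 at T1 in DKC6575. Its drought arrays were at 274 in Tietar and 250.3 in DKC6575, so 5 arrays lay close together and 1 stood apart. The difference of differences was 1.53.

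The 50S ribosomal protein L9 (Zm.8900.2.S1_at), of the large subunit of the same kind of ribosome, had 545 at T2 and 218 at T1 in Tietar, against 165 and 162 in DKC6575, with 175 and 191 on the drought arrays of Tietar and DKC6575. It was called at 1.29. The other 2 probe sets of the plastid-type list, L11 at 0.34 and L6 at -0.17, were not called.

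Elongation factor 1 alpha (Zm.3892.18.S1_a_at), which brings aminoacyl-tRNA to the ribosome, had 387 at T2 and 148 at T1 in Tietar, against 177 and 153 in DKC6575, and a difference of 1.18. The cytosolic 60S ribosomal protein L5-1 (Zm.7056.12.S1_at) had 293 and 114 in Tietar, against 120 and 102 in DKC6575, and 1.14. Both showed the same shape, with the drought arrays at 183 in Tietar and 170.2 in DKC6575 for the factor and at 132 and 145 for L5-1.

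Outside translation, the group held enzymes of photosynthesis and protein turnover. A probe set for carbonic anhydrase (Zm.1079.5.A1_a_at), which supplies bicarbonate to the C4 cycle, had 535 at T2 and 238 at T1 in Tietar, against 182 and 208 in DKC6575, and 191 and 192 on the drought arrays of Tietar and DKC6575. Its difference was 1.37. Ferredoxin-thioredoxin1 (FTR-B, Zm.101.2.A1_at), of the reductase that passes electrons from photosystem I to thioredoxins, had 190.3 at T2 and 98.2 at T1 in Tietar, against 81.1 and 92.6 in DKC6575, with 1.15. On the drought arrays it was lower than on all 4 irrigated ones, at 52.4 in Tietar and 65.1 in DKC6575.

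The ubiquitin-conjugating enzyme E2 ubc7 (Zm.16785.2.S1_at), which hands ubiquitin on to protein substrates, had 415 at T2 and 152 at T1 in Tietar, against 156 and 152 in DKC6575. With 173 and 136 on the drought arrays of Tietar and DKC6575, it gave 1.42. The translationally controlled tumor protein-like protein TCTP (Zm.6189.3.S1_at) had 866 and 272 in Tietar, against 308 and 210.4 in DKC6575, with 329.7 and 315 on the drought arrays, and 1.12. In every gene of this paragraph the Tietar T2 signal was the highest of the 6.

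In 4 of the 33 members a drought array lay beyond 2-fold of the other 3 irrigated arrays. The adhesive/proline-rich protein (Zm.2968.1.A1_at), of a family found in cell walls, had 689.8 at T2 and 128.2 at T1 in Tietar, against 357 and 168 in DKC6575, so it was higher at T2 in both varieties. Under drought it was at 563 in Tietar and 634 in DKC6575, near the Tietar T2 level, and its difference was 1.34. The other 3 have no gene title. Zm.4524.1.A1_at was at 278 in Tietar and 572 in DKC6575 under drought, Zm.791.1.S1_s_at at 330.1 and 92.8, and Zm.8113.1.S1_at at 86.3 and 92.5, against Tietar T2 signals of 608, 315 and 960.1.

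**Figure D3:**
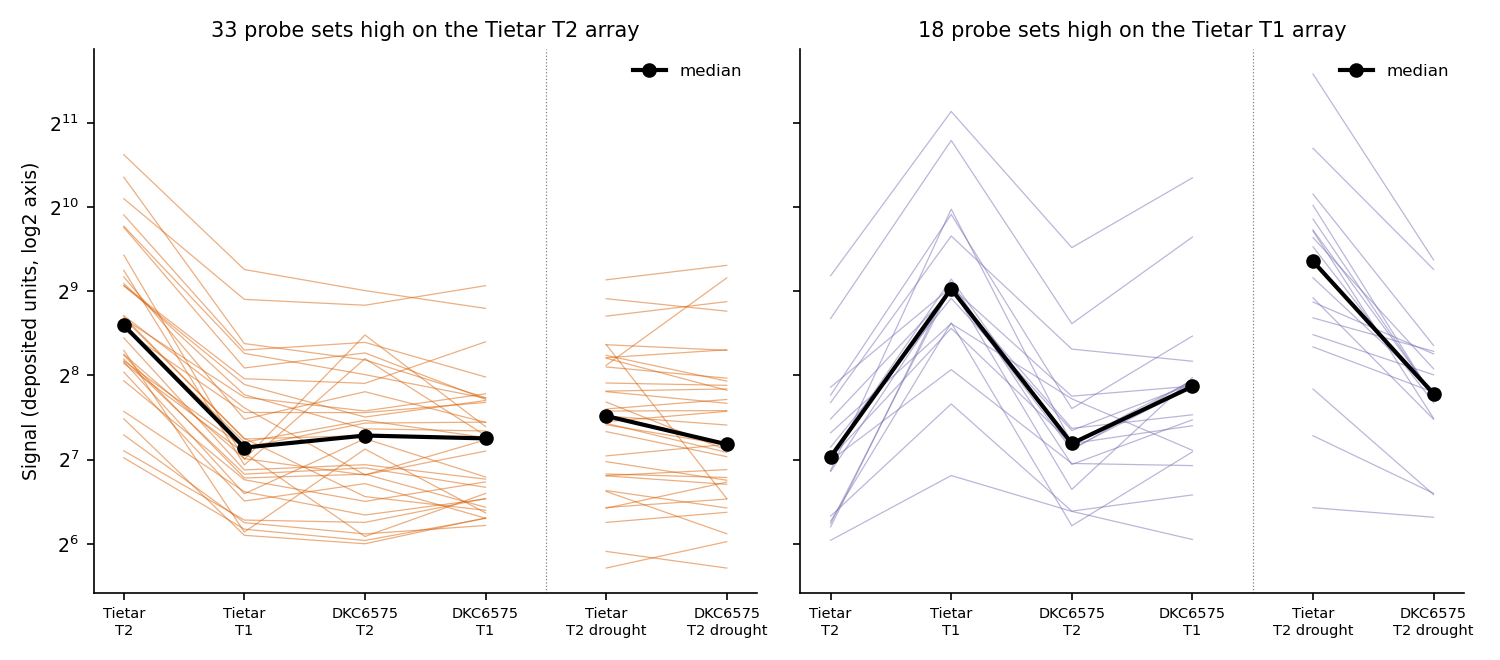
Signal (log2 axis) of each member of 2 groups on the 6 arrays, 1 thin line per probe set and the group median in black, with the 2 drought arrays, which the grouping did not use, right of the dotted line. The left group (33 probe sets) has a median of 387 on the Tietar T2 array and 183 on the Tietar drought array. The right group (18) has 522 on the Tietar T1 array and 655 on the Tietar drought array.

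Several genes have more than 1 probe set on the array, so the same transcript cluster can be read again on the same arrays. Probe sets with 1 cluster number in their ID were compared, although they can come from related genes. Of the 33 probe sets high on the Tietar T2 array, 24 had other kept probe sets in their cluster, 68 in all. Only 1 of these 68 was called in the same direction, and it belongs to an unnamed cluster, with ZmAffx.1135.2.A1_at at 1.15 and ZmAffx.1135.1.S1_at at 1.31. The medians of the other probe sets had a median of -0.004, against 1.25 for the called ones.

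The 14 other probe sets of the elongation factor 1 alpha cluster ranged from -0.18 to 0.46, and the 5 others of the carbonic anhydrase cluster from -0.05 to 0.39. In the cluster of L5-1, 8 others ranged from -0.63 to 0.26, and in that of ubc7, 4 others from -0.48 to 0.12. For these genes the 2-fold difference was seen in 1 probe set of the cluster and in none of the others.

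IDs starting with ZmAffx made up 27.3% of this group and 23.0% of all positive calls, against 8.64% of the negative calls and 4.73% of the probe sets kept. The part of probe design in this was not tested. The 3-prime to 5-prime log2 ratio of the actin control was 4.67 at T2 and 4.65 at T1 in Tietar, against 4.57 and 4.66 in DKC6575, and 4.25 and 4.28 on the drought arrays. The Tietar T2 array stood at least 2-fold above all 5 others at 28 kept probe sets, the Tietar drought array at 13, and the other 4 arrays at between 0 and 2. At least 2-fold below all 5 others, the Tietar T2 array stood at 2, the Tietar drought array at 15, and the other 4 at 0 or 1. The minimum signal was asked of the 4 irrigated arrays only, so the counts of the drought arrays are not on equal terms.

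**Figure D4:**
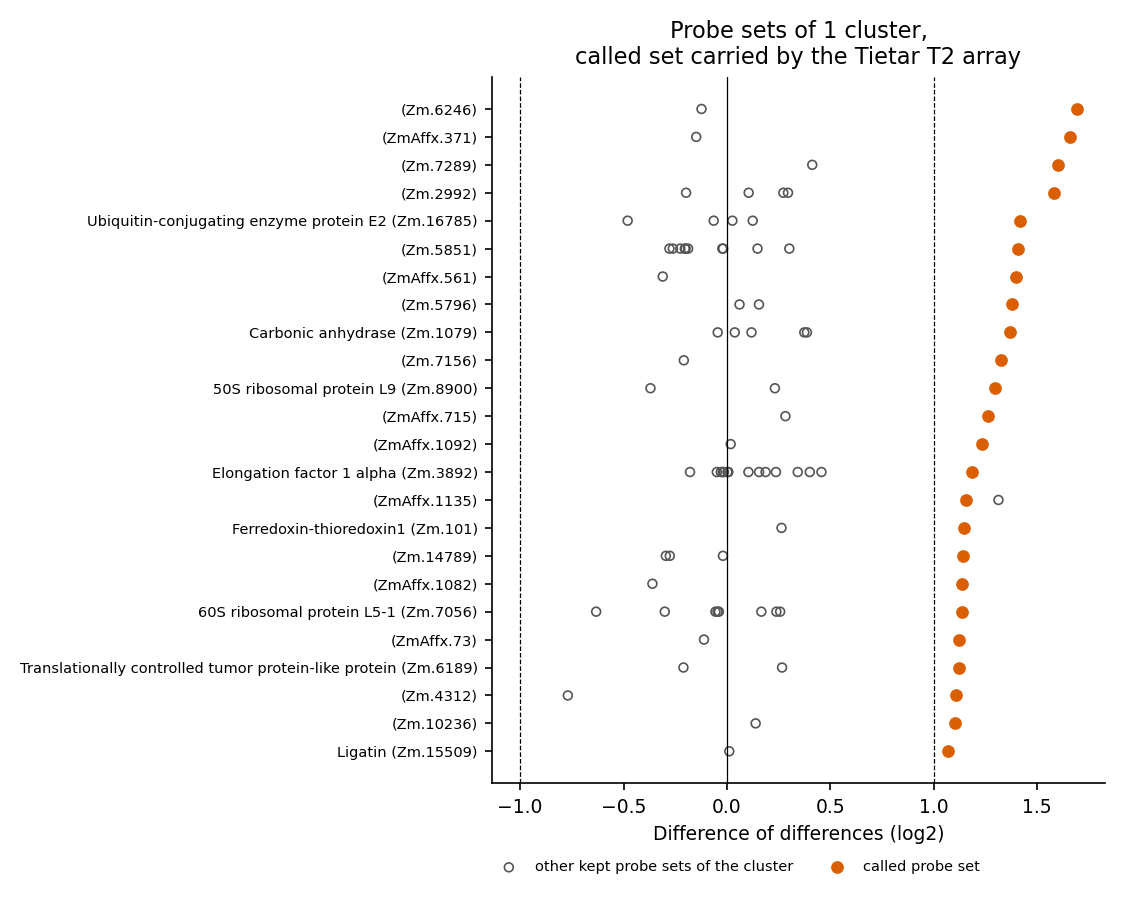
Difference of differences (log2, horizontal axis) for the 24 clusters in which a probe set high on the Tietar T2 array has other kept probe sets, with the called probe set in orange, the others as open circles and 2-fold as dashed lines. The open circles lie around 0, apart from 1 of 68 beyond the dashed line.

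The second group, 18 probe sets, was high on the Tietar T1 array. Its median signal was 131 at T2 and 522 at T1 in Tietar, against 146 at T2 and 234 at T1 in DKC6575. On the drought arrays its median was 655 in Tietar and 220.0 in DKC6575. Tietar was at least 2-fold higher than DKC6575 under drought in 12 of the 18, against 0.602% of all probe sets kept, and higher by any amount in all 18. The Tietar drought array was at least 2-fold above the mean of the other 3 irrigated arrays in 14 of the 18, and the share over all probe sets kept was not counted. By its medians the group was high on 2 Tietar arrays. The third, the irrigated Tietar T2 array (131), stood near the irrigated DKC6575 T2 array (146). The rule for the group favours a small variety difference at T2, so this closeness is a description.

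The ZIM motif family protein (Zm.10850.1.S1_at), whose motif is that of the JAZ repressors of jasmonate signalling in Arabidopsis, had 75.6 at T2 and 532 at T1 in Tietar, against 100.1 at T2 and 252 at T1 in DKC6575. Under drought it was at 738 in Tietar and 205 in DKC6575. The change from T1 to T2 was -2.81 in Tietar and -1.33 in DKC6575, which gives -1.48. The other 3 kept probe sets of the jasmonate list, 2 for lipoxygenase and 1 for 12-oxo-phytodienoic acid reductase, ranged from -0.10 to 0.35.

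A polcalcin Jun o 2 probe set (Zm.10480.1.S1_at), named for a calcium-binding allergen of juniper pollen, had 179 at T2 and 512 at T1 in Tietar, against 166 and 185 in DKC6575, with 572 and 227 under drought in Tietar and DKC6575. Its difference was -1.36. The glucose-6-phosphate/phosphate translocator 2 (Zm.15311.1.S1_at), which imports glucose 6-phosphate into plastids, had 582 at T2 and 2250.5 at T1 in Tietar, against 733 and 1303 in DKC6575, and -1.12. It was lower at T2 in both varieties and was 1 of 4 members whose Tietar drought signal (468, against 306 in DKC6575) was not 2-fold above the other 3 irrigated arrays.

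The largest differences of the group had no gene title. Zm.9425.2.A1_x_at had 73.5 at T2 and 553 at T1 in Tietar, against 123 and 178 in DKC6575, and -2.38. The other kept probe set of its cluster, Zm.9425.1.A1_a_at, gave -1.36. Zm.16474.1.A1_at had 117 and 1007 in Tietar, against 146 and 246 in DKC6575, and -2.36. Zm.12517.1.A1_at had 205 and 807 in Tietar, against 318 and 288 in DKC6575, and -2.12, and reached 3064.5 under drought in Tietar, against 663 in DKC6575. In this group 3 members, from 2 clusters, had another kept probe set in the cluster, and in all 3 that probe set was called in the same direction. In the group high on the Tietar T2 array this held for 1 of 24 members, and the difference was not tested. Both Zm.9425 probe sets are members of the group high on the Tietar T1 array and count for each other, so the 3 are not independent.

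Of 18 named probe sets between the threshold and -0.8, 6 were carried by the Tietar T1 array. The share was 22.2% among negative calls and 6.34% among all probe sets kept. Carriers come from the same signals as the difference, so these shares are a description. The shapes varied, and CCD1, given first below, was shared by both varieties and both stages and is not among the 6. The EF-hand Ca2+-binding protein CCD1 (Zm.12139.1.A1_at), a calcium sensor type, had 179 at T2 and 1982 at T1 in Tietar, against 83.0 and 468 in DKC6575, with 1994 and 348 under drought in Tietar and DKC6575, and a difference of -0.97. The metal-binding metallothionein2 had 125 and 309 in Tietar, against 137 and 171 in DKC6575, with 315 and 148 under drought, and -0.98. The small heat shock protein18f had 364 and 649 in Tietar, against 309.6 and 310.2 in DKC6575, with 2519 and 738 under drought, and -0.83. The anther specific protein (Zm.10322.1.S1_at) had 105 and 248 in Tietar, against 108 and 135 in DKC6575, with 161 and 99.9 under drought, and -0.93. Response regulator 7 (Zm.326.1.S1_at), of cytokinin signalling, was highest on the DKC6575 T2 array, with 289.7 and 366 in Tietar, against 423 and 279 in DKC6575, 152 and 169 under drought, and -0.94.

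Over all 81 negative calls, Tietar was at least 2-fold higher than DKC6575 under drought in 18 and at least 2-fold lower in 0, and it was higher by any amount in 64 (79.0%), against 51.0% of the probe sets kept. Of the 74 positive calls, 2 were at least 2-fold higher and 2 at least 2-fold lower in Tietar under drought, and 34 (45.9%) were higher by any amount. The background of at least 2-fold lower was 0.245%. With the drought arrays in place of the irrigated T2 arrays and the same T1 arrays, 6 of the 74 positive and 6 of the 81 negative probe sets again reached 2-fold in the same direction. Drought and array cannot be told apart here.

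Among the 11 negative calls carried by the Tietar T2 array, which was low there, the R2R3 Myb transcription factor MYB-IF35 (Zm.13865.1.S1_at), of a family of DNA-binding regulators, had 118 at T2 and 280.5 at T1 in Tietar, against 256 and 272 in DKC6575, with 221 and 217 under drought in Tietar and DKC6575. Its difference was -1.16. A probe set titled loricrin (Zm.3428.1.A1_at) had 79.1 and 290.0 in Tietar, against 162 and 212 in DKC6575, and -1.48. The brightest named one, eks1 (Zm.446.1.S1_at), had 1418 and 2378 in Tietar, against 2469 and 1910.3 in DKC6575, and -1.12. In 10 of the 11, both drought arrays were within 2-fold of the other 3 irrigated arrays, and the share over all probe sets kept was not counted.

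DKC6575 carried fewer calls, but among them was the largest positive one. The calmodulin-like protein 1 (Zm.2926.1.A1_at), of a family of calcium sensors, had 578 at T2 and 387 at T1 in Tietar, against 230.0 at T2 and 664 at T1 in DKC6575. The change was 0.58 in Tietar and -1.53 in DKC6575, so the order of the varieties turned between the stages and the difference was 2.11. On the drought arrays the varieties were close, at 493 in Tietar and 471 in DKC6575. Another probe set with the same title, Zm.13005.1.S1_at, gave -0.16.

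AGA3b (Zm.19172.1.A1_at) had 354 at T2 and 321 at T1 in Tietar, against 162 and 543 in DKC6575, with 105 and 219 under drought in Tietar and DKC6575, and 1.89. The iron-sulfur assembly protein IscA (Zm.10215.1.A1_at), which helps to build iron-sulfur clusters, had 278 and 160.2 in Tietar, against 154 and 339 in DKC6575, with 179 and 178 under drought in Tietar and DKC6575. It changed by 0.80 in Tietar and by -1.13 in DKC6575, a difference of 1.93 that all 4 arrays shared. The BRASSINOSTEROID INSENSITIVE 1-associated receptor kinase 1 (Zm.14103.2.A1_at), in Arabidopsis a co-receptor for brassinosteroids and for immune signals, had 175 and 87.9 in Tietar, against 74.4 and 107 in DKC6575, and 1.51. Here the variety difference was present under drought too, with 167 in Tietar and 56.0 in DKC6575.

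Some cellulose synthase genes had their highest signal on the DKC6575 T1 array. Of 8 kept probe sets for catalytic subunits of the complex that spins cellulose at the plasma membrane, 5 probe sets of 4 of the 7 genes had their highest of the 4 signals there, against 23.4% of all probe sets kept, and the median difference of the 8 was 0.52. Further members of this family were chosen after their values were seen, and the level is that of 1 array, so the share is a description. CesA-4 (Zm.520.1.S1_x_at) was the called one, with 153 at T2 and 163 at T1 in Tietar, against 147 at T2 and 336 at T1 in DKC6575, and 1.10. The other probe set of that gene, Zm.520.1.S1_at, had 132 and 201 in Tietar, against 174 and 372 in DKC6575, and gave 0.49.

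The cellulose synthase7 probe set had 345 at T2 and 439 at T1 in Tietar, against 386 and 966 in DKC6575, and 0.97. For cellulose synthase-1 the signals were 97.7 and 107 in Tietar, against 114 and 201 in DKC6575, and the difference was 0.69. CesA-9 had 166 and 161 in Tietar, against 178 and 254 in DKC6575, and 0.56. CesA-3, CesA-5 and CesA-6 had their highest signal on a Tietar array, with differences of -0.02, 0.36 and -0.35. A neighbour in function, xyloglucan endotransglycosylase homolog1, which cuts and rejoins wall xyloglucan, was lower at T2 in both varieties, by -1.78 in Tietar and -2.40 in DKC6575. The cell wall list as a whole had 14 kept probe sets with a median of 0.52, of which 11 were above 0. Its 2 calls were CesA-4 and the adhesive/proline-rich protein, both positive.

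Negative calls shared by several arrays included metabolic enzymes. The beta-D-glucosidase precursor glu2 (Zm.418.1.A1_at), of the enzymes that release benzoxazinoids from their glucosides, had 83.8 at T2 and 1312 at T1 in Tietar, against 315 and 2081 in DKC6575, so it was lower at T2 in both, and more so in Tietar (-3.97 against -2.72). The UDP-glucuronic acid 4-epimerase (Zm.12322.1.A1_at), which makes the precursor of pectin, had 106 and 263 in Tietar, against 142 and 172 in DKC6575, and -1.03. Prostaglandin E synthase 3 (Zm.3256.2.A1_at), the title of the p23 co-chaperone of HSP90, had 606 and 1125 in Tietar, against 1016 and 795 in DKC6575, and -1.25, while the 2 other probe sets of its cluster gave 0.35 and 0.41.

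The largest named negative value was that of ribosomal protein S6 (Zm.3699.7.S1_a_at), of the small cytosolic subunit, with 661 at T2 and 911 at T1 in Tietar, against 992 at T2 and 421 at T1 in DKC6575, and -1.70. It changed in opposite directions in the varieties, by -0.46 in Tietar and 1.24 in DKC6575. The 8 other probe sets of its cluster ranged from -0.24 to 0.11. The largest negative value of any probe set, -2.94, belonged to the unnamed Zm.8882.1.S1_at, with 79.6 and 313 in Tietar, against 191 and 98.1 in DKC6575, and 576 and 565 on the drought arrays.

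A pair of negative calls came from the pollen-enriched list. Profilin homolog1 (Zm.1684.1.S1_at), an actin-binding protein, had 103 at T2 and 66.2 at T1 in Tietar, against 229 at T2 and 65.9 at T1 in DKC6575, and -1.15. The pollen-specific arabinogalacta protein BAN102 (Zm.2015.2.S1_at), a glycoprotein of the cell surface, had 241 and 108.5 in Tietar, against 366 and 80.3 in DKC6575, and -1.04. On the drought arrays the varieties stood in the same order, with 151 in Tietar and 247 in DKC6575 for the profilin, and 261 and 448 for BAN102. The list had 6 kept probe sets with a median of -0.81, of which 2 were above 0, and the anther specific protein among them was carried by the Tietar T1 array, with nearly equal T2 signals in the varieties.

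Most pollen genes could not enter the comparison because they lay under 64 at T1. All 4 pollen markers, exopolygalacturonase1, the Zea m 1 allergen, profilin 2 and the group 3 pollen allergen, were left out for this reason. Their summed signal was 978 at T2 and 83.0 at T1 in Tietar, against 1911 at T2 and 26.3 at T1 in DKC6575, and 1011 and 2068 on the drought arrays of Tietar and DKC6575. At T2 each of the 4 was lower in Tietar, and the sum was 0.512 of that in DKC6575.

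More widely, 192 probe sets reached 64 on both T2 arrays and on neither T1 array, and 122 of them (63.5%) were lower in Tietar at T2, against 51.5% of the probe sets kept. All 10 pollen-enriched probe sets among them were lower in Tietar at T2, with a median of -0.98, and all 10 were lower under drought. The beta-expansin 9 protein, of a family that loosens grass cell walls, had a signal of 113 in Tietar and 359.8 in DKC6575 at T2 (Zm.3219.1.S1_a_at), and 159 and 351 under drought. The male-gametophyte specific1 probe set (Zm.1381.1.S1_at) had 94.9 in Tietar and 184 in DKC6575 at T2, and 90.1 and 220.3 under drought. How much pollen lay on the sampled leaves was not tested. In the opposite case, 74 probe sets reached 64 on both T1 arrays and on neither T2 array, and their median variety difference at T1 was -0.04.

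Other gene groups gave small median differences with few calls. The lists were drawn from titles and symbols, of which many come from the study's own selection on these arrays, so a list is not independent evidence of its direction. The 113 kept probe sets for cytosolic ribosomal proteins had median changes of 0.65 in Tietar and 0.73 in DKC6575, a median difference of -0.05, and 1 positive and 1 negative call, beside 0.755% and 0.826% of all probe sets. The 12 for translation factors had a median of 0.14, with 1 positive call.

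C4 cycle enzymes (9 kept) had a median difference of 0.28 and light harvesting and photosystem genes (8 kept) 0.17, but quantile normalization gave 0.02 and 0.07. Pep1, the carboxylase of the mesophyll, changed by less in Tietar than in DKC6575 and gave 0.49. The photosystem antenna protein chlorophyll a-b binding protein 2 had 408 at T2 and 8584 at T1 in Tietar, against 1169 and 15988 in DKC6575, and -0.62. In the light harvesting list 0 of 8 were called.

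Heat shock proteins and chaperones (23 kept, 0 called) had a median of -0.28, aquaporins (19 kept, 0 called) -0.24, and LEA proteins, dehydrins and abscisic acid genes (5 kept, 0 called) -0.34, beside -0.02 for all probe sets kept. Proteases and senescence genes (16 kept, 1 positive) had 0.28. Calcium signalling and kinases (23 kept) had 3 positive calls and 0 negative, with a median of -0.16, so the called members and the median differed in sign. Among transcription factors (17 kept), the 1 call was MYB-IF35. The NAC domain-containing protein 68 (Zm.15528.1.S1_at), of a family linked to stress and senescence, had 767 at T2 and 333 at T1 in Tietar, against 529.7 and 443 in DKC6575, and 0.94.

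**Figure D5:**
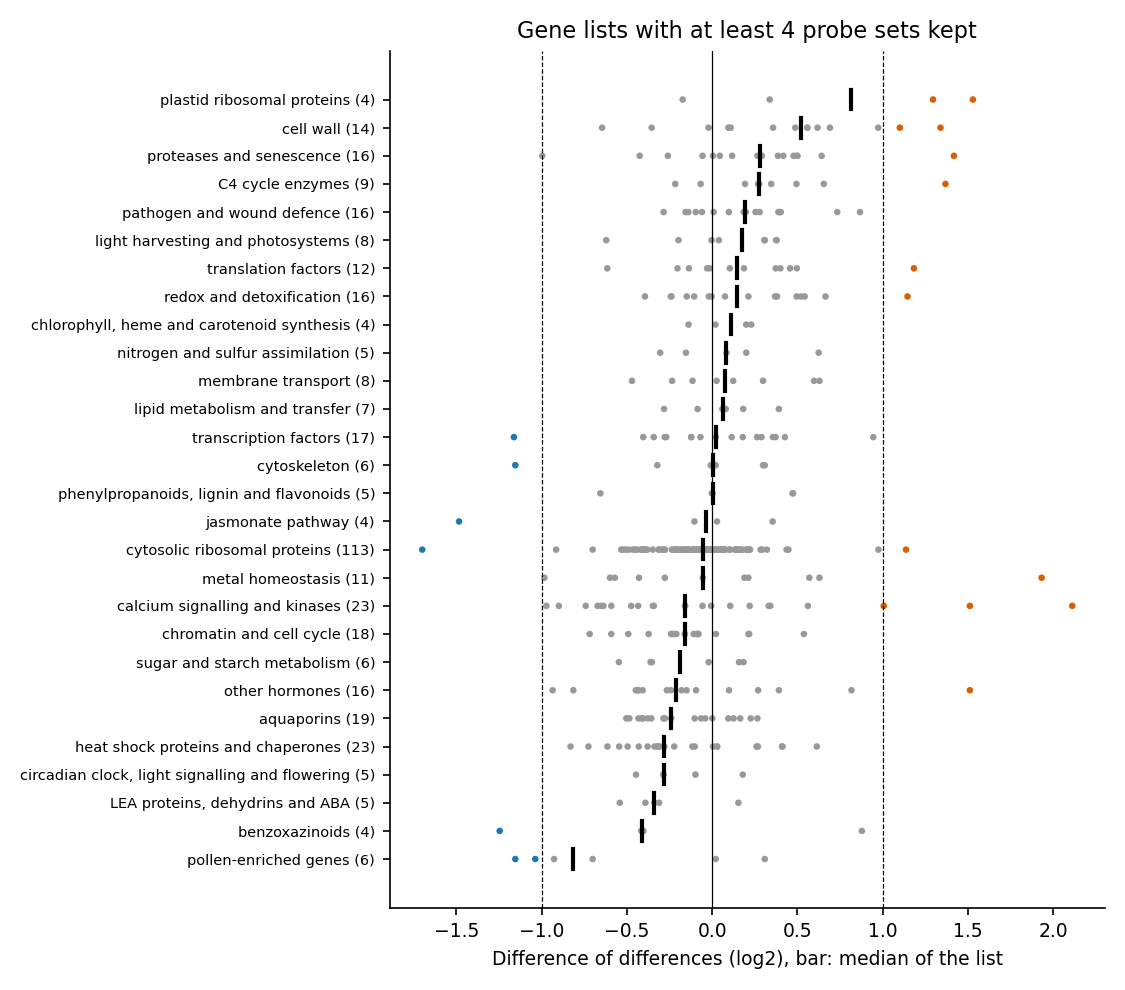
Difference of differences (log2, horizontal axis) of each kept member of the gene lists with at least 4 kept probe sets, with the number kept in brackets, list medians as black bars, positive calls in orange, negative calls in blue and 2-fold as dashed lines. List medians run down to -0.81 for pollen-enriched genes, and most members of the 113 cytosolic ribosomal probe sets lie within 0.5 of 0.

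The filter decides part of this picture. With 1 of the 4 arrays under 64, a further 359 probe sets had 28 positive and 28 negative values past 2-fold, 15.6% in all, against 1.58% of those kept. Where that array was the Tietar T2 one (99 probe sets), 18 of the values were negative and 0 positive. Where it was the Tietar T1 one (85 probe sets), 15 were positive and 0 negative. For the DKC6575 T2 array (72 probe sets) 12 were positive and 0 negative, and for the DKC6575 T1 array (103 probe sets) 1 was positive and 10 negative. Choosing probe sets by which array is low favours 1 sign, so the signs follow from the selection. With all 4 arrays under 64 (6569 probe sets), 54.0% passed 2-fold, and these are not described further.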

How the data were processed

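The values deposited by the authors are linear signal intensities of the 6 arrays with a 2% trimmed mean near 500 on each, whereas the methods name RMA, which gives log2 values, and Partek. How plants and replicates entered an array is not given in the sources used here. Signals were taken to log2 and otherwise used as deposited, with no replicate, no test and no array left out. Percentages and fold thresholds are those of the text (signal 64, 2-fold, carrier factor 2).

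Gene names are the single titles of the study's supplementary list (998 probe sets) or classical symbols through the platform annotation and the RefSeq gene table for Zm-B73-REFERENCE-NAM-5.0 (1036 more). Genes named are the 15 largest named differences each way, up to 3 per list, the 3 largest per array, the 5 largest each way, the edges of the threshold and the markers (135 probe sets). CCD1, the untitled members beyond 2-fold under drought, the named genes of the T2-only class, other probe sets of a called cluster or title, and further members of the cellulose synthase, cell wall, plastid ribosomal and jasmonate genes were chosen after their values were seen. Members and the 29 lists were chosen with earlier results of these data known, and list patterns were adjusted after their members were seen. Python 3.11.15, numpy 2.4.6, pandas 2.3.3, scipy 1.17.1, matplotlib 3.10.9 and, for cyclic loess, limma 3.58.1 in R 4.3.3 were used. The code of the counting and carrier rules was tested on simulated data with changes planted on 1 array each. The planted changes were larger than most calls and the noise was smaller than the observed spread. The simulation therefore does not tell how reliably carriers are assigned in these data.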

Additional observations from a re-analysis of the deposited data

Results flagged for a closer look

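Of the called probe sets, 15 changed by at least 0.5 on the log2 scale in both varieties and in opposite directions, and 3 of these have a gene name. The calmodulin-like protein 1 had a difference of differences of 2.11, the iron-sulfur assembly protein IscA 1.93 and the BRASSINOSTEROID INSENSITIVE 1-associated receptor kinase 1 1.51. Each was higher at T2 in Tietar and lower at T2 in DKC6575. With 1 array per group these differences were not tested.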

How the results depend on the processing

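Median centring, quantile normalization and cyclic loess changed neither count by over 1.5 times, with 81 to 85 positive and 75 to 77 negative calls, and kept all 74 positive calls and 72 to 75 of the 81 negative ones. The counts followed the thresholds: 358 positive and 479 negative at 1.5-fold, 7 and 11 at 3-fold, 32 and 33 with the minimum signal doubled, 158 and 136 with a minimum of 32, and 2313 and 1692 with no filter. There were 112 positive calls with signals under 64 set to 64 and 114 where the mean of the log2 signals had to reach 6. The share carried by the Tietar T2 array was 17.2% with no filter and 19.4% with a carrier factor of 3. Chosen after seeing the data, 1 probe set per ID cluster left 37 positive and 65 negative calls, and leaving out probe sets carried by the Tietar T2 array left 41 and 70, so the near balance of 74 and 81 was lost in both.

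With the drought arrays in place of the irrigated T2 arrays there were 65 positive and 34 negative calls. Of the called probe sets picked by the rule for named genes, some of which have no gene name, 18 then changed sign: AGA3b (-0.30), 30S ribosomal protein S7 (-0.51), carbonic anhydrase (-0.19), 50S ribosomal protein L9 (-0.55), Ferredoxin-thioredoxin1 (-0.40), 60S ribosomal protein L5-1 (-0.29), TCTP (-0.31), the calmodulin-like ZmAffx.467.1.S1_at (-0.79), ZIM motif family protein (0.77), loricrin (0.20), glu2 (1.73), prostaglandin E synthase 3 (0.43), eks1 (0.025), UDP-glucuronic acid 4-epimerase (0.14), Zm.9425.2.A1_x_at (0.47), Zm.16474.1.A1_at (0.19), Zm.12517.1.A1_at (0.72) and ZmAffx.1469.1.S1_at (0.0082). The part of drought in this was not tested. Over all members with signals under 64 set to 64, 13 of the 29 list medians moved by over 0.1.

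Each group has 1 array, so none was left out in turn, and promoter motifs were not analysed here. No paired analysis was possible because each group has 1 array. Depth on an array is limited by signal over background, and most calls rest on dim signals.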
